A study of Mus musculus with 4 samples.

Results

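Solute carriers that move zinc, nucleotide sugars, choline and the contents of organelles were examined on 4 arrays of ultraviolet-crosslinked mouse intestinal epithelium. The members were the genes of 8 families, SLC17, SLC18, SLC30, SLC33, SLC35, SLC37, SLC39 and SLC44, taken by gene symbol from probe sets with a single symbol. There were 74 such probe sets for 71 genes, of 19937 genes measured in all. RNA had been precipitated with an antibody to Msi1 (Musashi1, an RNA-binding protein of progenitor cells; Millipore AB5977), with an antibody labelled hnRNP (heterogeneous nuclear ribonucleoprotein, a class of nuclear RNA-binding proteins; the labels do not say which) or with control IgG, and the starting RNA was kept as input. All 4 groups came from adult C57BL/6 mice without further treatment named in the labels, and each was read on 1 Affymetrix Mouse Gene ST array that carried RNA pooled from 2 experiments. There were thus no replicates, no difference could be tested, and every value below describes these arrays. The study ranked transcripts by their enrichment over IgG, and that comparison is given first.

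Zinc enters the cytosol through SLC39 proteins and leaves it, for organelles or for the outside, through SLC30 proteins. In the small intestine the uptake of dietary zinc across the brush border depends on Slc39a4, and its release to the blood on Slc30a1. SLC35 proteins carry nucleotide sugars and related compounds into the endoplasmic reticulum and Golgi apparatus, where mucins and other glycoproteins receive their sugars. SLC37 proteins exchange sugar phosphates for phosphate, SLC44 proteins carry choline and related compounds, and Slc33a1 carries acetyl-CoA into the endoplasmic reticulum. SLC18 proteins fill vesicles with amines, and SLC17 proteins carry organic anions such as glutamate, sialic acid or urate across vesicle, lysosome or plasma membranes.

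Signals are on a log scale read as base 2 from their range, 1.07 to 14.3, so that a difference of 1 is a 2-fold change. Genes were counted as detected above a floor set on each array by the signals of 1204 probe sets for smell and pheromone receptors. Most of these receptor genes are not known to act in gut epithelium. The floor was the 95th percentile of those signals and lay at 4.74 in Msi1, 5.17 in hnRNP, 5.26 in IgG and 4.09 in input. On input, all 10 epithelial marker genes sought exceeded the floor, at 7.57 (Chga) to 13.89 (Lyz1). Of 8 markers of other cell types found, 3 exceeded it, namely Cd3e (6.36), Ptprc (4.86) and Col1a1 (4.80), and Cd79a, Des, Myh11, Pecam1 and Gfap did not. The floor takes the place of depth, and precision is limited by how few arrays there were.

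Most of these carriers were measurable in the starting RNA, and fewer in any precipitate. Above the floor were 40 of 71 members in Msi1, 22 in hnRNP, 14 in IgG and 56 in input, and 15 members were below the floor on all 4 arrays. Over all genes the shares were 47.7% in Msi1, 32.9% in hnRNP, 28.1% in IgG and 59.1% in input, while the members reached 56.3% in Msi1, 31.0% in hnRNP, 19.7% in IgG and 78.9% in input. With the floor at the 99th percentile, 30 members were above it in Msi1 (42.3%, all genes 24.2%), 7 in hnRNP (9.86%, all genes 13.1%), 8 in IgG (11.3%, all genes 10.3%) and 47 in input (66.2%, all genes 44.9%). By both floors the members exceeded it more often than all genes on the Msi1 and input arrays, while on IgG the order turned with the floor; none of this was tested. Signals of different probe sets are not a measure of which transcript was more abundant, and in RNA of a whole tissue fewer cells of a type and less RNA per cell cannot be told apart.

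**Figure D1:**
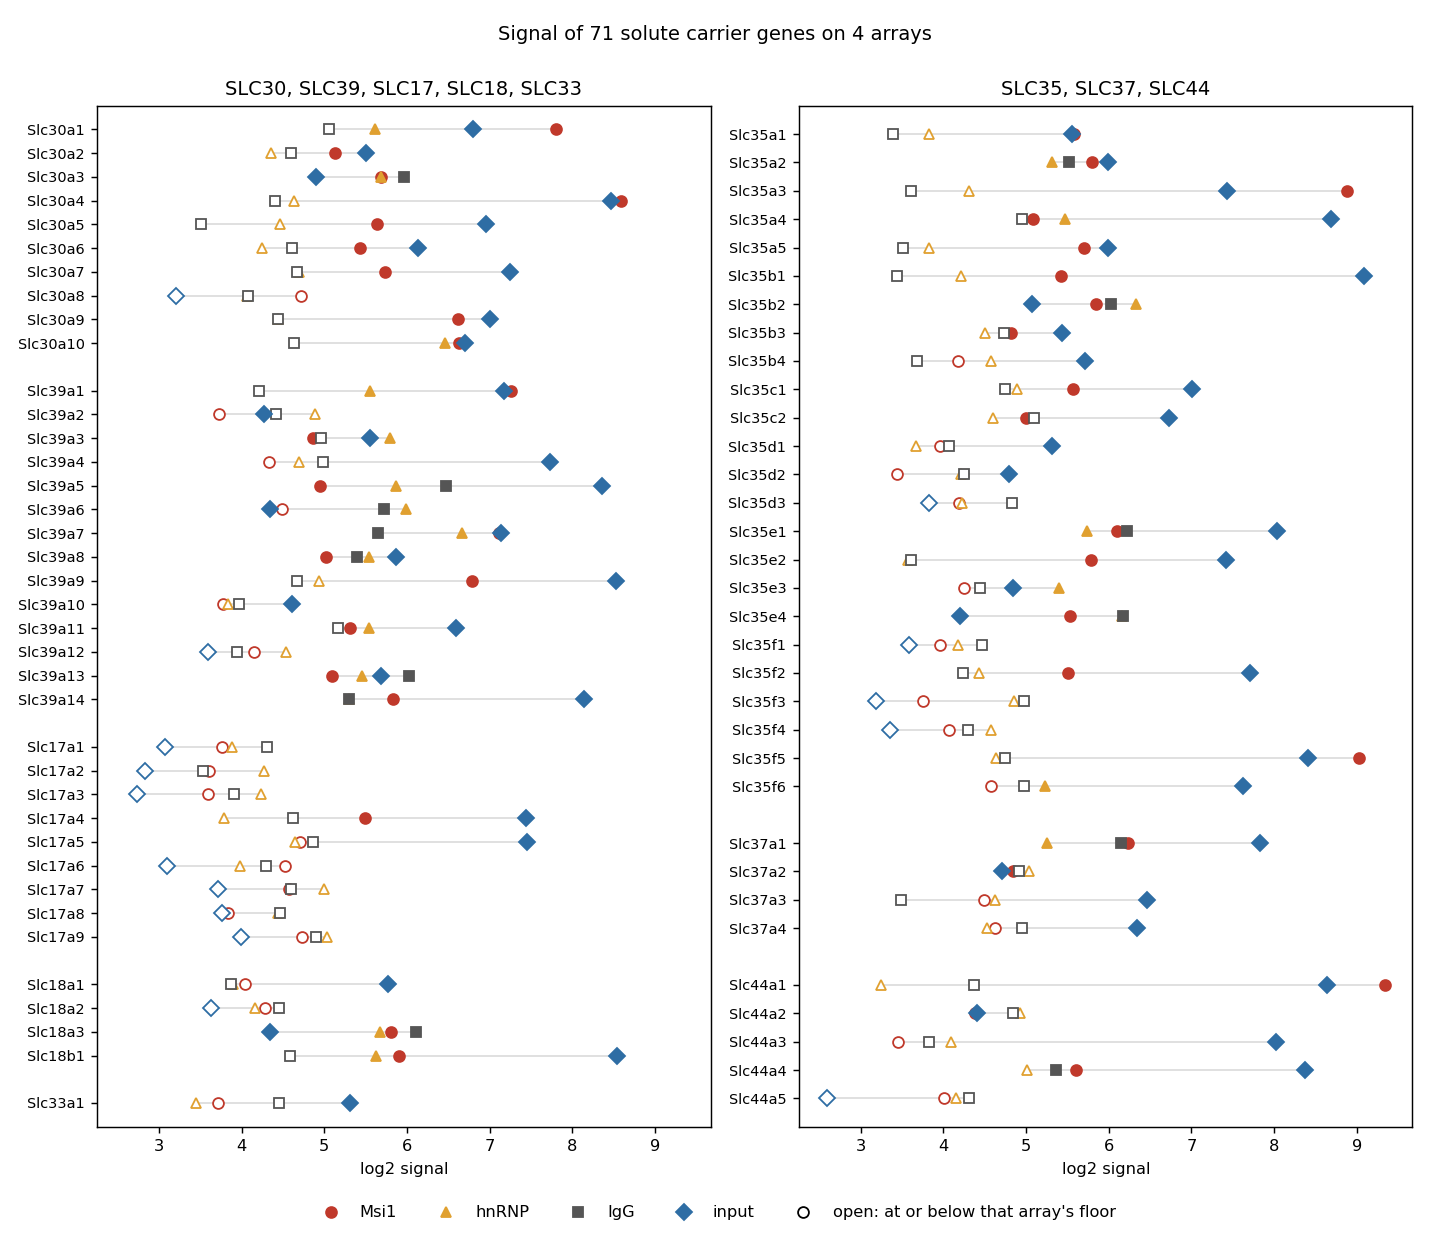
Log2 signal of each of the 71 members (rows, by family) on the Msi1, hnRNP, IgG and input arrays, 1 value per gene and array. Filled symbols exceed that array's floor and open ones do not; where values coincide, 1 symbol covers another. Slc35a3, Slc35f5, Slc44a1 and Slc30a4 stand near or above input in Msi1 while their IgG and hnRNP symbols are open.

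In Msi1 against IgG, 18 members were at least 2-fold higher and 2 were at least 2-fold lower. The comparison took in 41 members that exceeded the floor on at least 1 of both arrays, and over all 10360 genes that did so 18.6% were higher and 6.91% lower. Of the 41, 27 passed through the Msi1 array alone, 13 through both arrays and 1 through IgG alone, so the filter itself favoured members that were high in Msi1. As a share of all 71 members, detected or not, the 18 made up 25.4%, and the genes called higher made up 9.67% of all 19937. The median difference over the 41 was 0.83, beside 0.06 over all genes compared, and over all 71 it was 0.07, beside −0.19 over all genes. For 17 of the 18 the IgG value was below its floor, so their folds are lower bounds against the floor. With values below the floor raised to it, 10 members were at least 2-fold higher and 1 was lower, beside 10.8% and 3.87% of all genes.

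As a yardstick in the absence of replicates, the 1190 receptor genes differed between Msi1 and IgG by a median of −0.38, with 95% of them between −1.57 and 0.74. Both lower members lay inside that range. The 291 genes of other solute carrier families had 21 higher and 6 lower of 144 compared, with a median of 0.15. The difference between these carriers and the members was not tested.

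**Figure D2:**
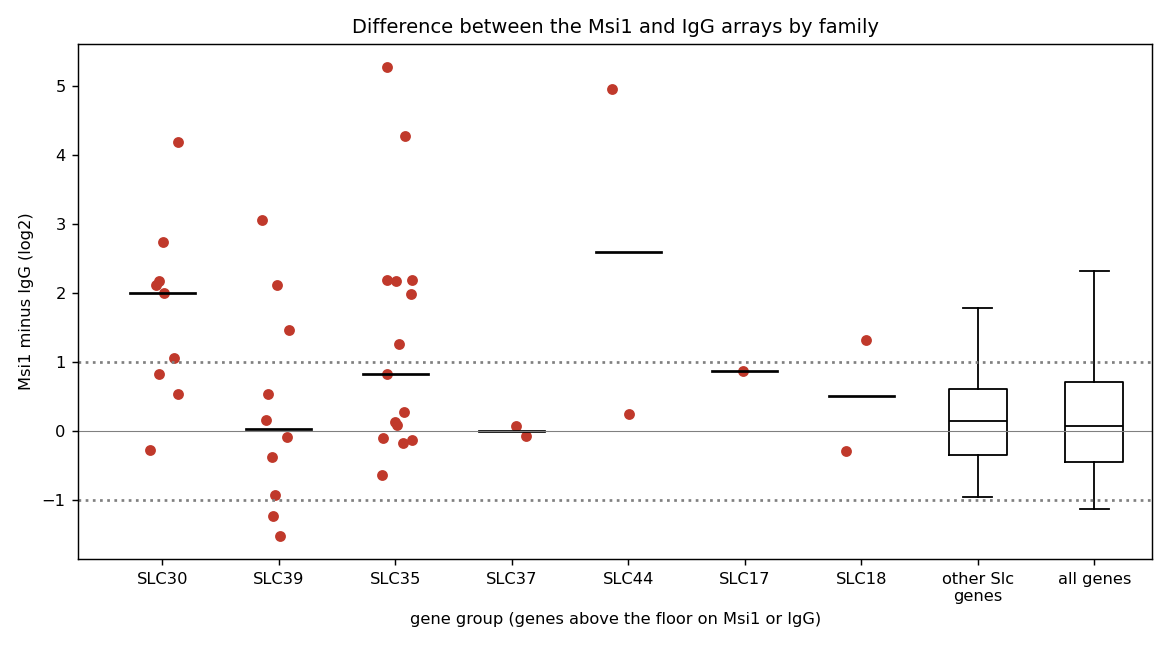
Msi1 minus IgG (log2) for members above the floor on either array, 1 point per gene with a bar at the family median, beside boxes for the 144 other solute carrier genes and all 10360 genes (median, quartiles, whiskers at percentiles 5 and 95). Dotted lines mark 2-fold; SLC33 is left out because its 1 member was below the floor on both arrays. SLC30 members lie mostly above the upper line, and SLC39 members lie on both sides of 0.

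The Msi1 calls moved with the level on input. Above an input signal of 8, 6 of 12 members (50%) and 661 of 1410 genes (46.9%) were above IgG by 2-fold or more in Msi1. Between 6 and 8 the counts were 10 of 21 members (47.6%) and 982 of 4286 genes (22.9%). Between the floor and 6 they were 2 of 23 members (8.70%) and 265 of 6085 genes (4.35%). Over all genes above the input floor 16.2% were higher, beside 18 of 56 members (32.1%). These ranges were chosen after the values were seen, and the part of the input level in the members' count was not tested. Epithelial markers moved in the same direction, with 8 of 10 higher and 1 lower, beside 18.6% and 6.91% of all genes compared. Their part in the members' count was not tested.

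**Figure D3:**
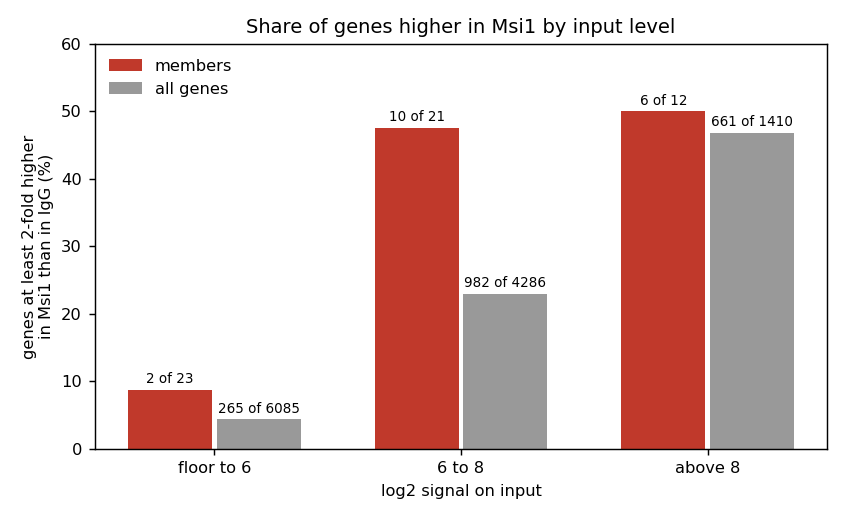
Percentage of genes above IgG by 2-fold or more in Msi1, by log2 signal on input, for members and for all genes above the input floor; bars start at 0 and carry their counts. The members' bar is about level with that of all genes above 8 and taller than it between 6 and 8.

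Among the SLC30 zinc carriers, 6 of 10 exceeded IgG by 2-fold or more in Msi1 and 0 were lower, and 9 of the 10 could be compared. Of all genes, detected or not, 9.67% were higher and 3.59% lower. These are the shares to set beside this and the later family counts. Slc30a4, which loads zinc into vesicles, read 8.59 in Msi1, 4.64 in hnRNP, 4.40 in IgG and 8.47 in input. Msi1 thus stood level with input, while both other precipitates were below their floors. It was at least 10.03-fold above IgG in Msi1 (4.19), at rank 66 of the 10360 genes. Slc30a1, the zinc exporter of the plasma membrane, read 7.80 in Msi1, 5.61 in hnRNP, 5.06 in IgG and 6.80 in input. It was highest in Msi1, at least 5.79-fold over IgG (2.74), and exceeded input by 1.00, which is 1.998-fold and just under the 2-fold line.

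Slc30a9, assigned to zinc release from mitochondria, read 6.62 in Msi1, 4.44 in hnRNP, 4.44 in IgG and 7.01 in input, and was at least 2.55-fold above IgG in Msi1 (2.18). Slc30a10, which exports manganese, read 6.63 in Msi1, 6.46 in hnRNP, 4.63 in IgG and 6.70 in input. It was at least 2.58-fold above IgG in Msi1 (2.00). It differed from the preceding genes in that hnRNP too stood well above IgG and near Msi1.

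Slc30a5 and Slc30a7 were dimmer in Msi1 than in input. Slc30a5, which acts in the early secretory pathway as a dimer with the product of Slc30a6, read 5.63 in Msi1, 4.47 in hnRNP, 3.51 in IgG and 6.96 in input. Its difference from IgG was 2.12, but at least 1.29-fold when taken from the IgG floor. Slc30a7, a Golgi zinc carrier, read 5.73 in Msi1, 4.69 in hnRNP, 4.67 in IgG and 7.25 in input, a difference from IgG of 1.07 (at least 1.38-fold). Slc30a6 itself differed from IgG by 0.83 and stayed under 2-fold. Slc30a2, a vesicular zinc carrier, and Slc30a3, that of synaptic vesicles, differed by 0.54 and −0.27, and Slc30a8, the zinc carrier of insulin granules, was below the floor on all 4 arrays.

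Since SLC30 had the most calls for its size, the promoters of its 6 higher members were searched for the metal response element, the site of the zinc-sensing factor Mtf1, as TGCACNC or TGCGCNC on either strand in the 250 bases before the RefSeq start (GRCm38.p6). A match was found for 4 of the 6, Slc30a7 and Slc30a9 having none in this window. Among the SLC30 genes under 2-fold, Slc30a2 and Slc30a3 also had a match, the latter not in every promoter, and Slc30a6 had none. Each stretch below runs 5′ to 3′ on the gene's strand, with matches in capitals, which may overlap one another in the last.
Slc30a1: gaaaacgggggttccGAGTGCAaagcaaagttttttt
Slc30a5: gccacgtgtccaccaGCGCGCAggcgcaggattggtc
Slc30a4: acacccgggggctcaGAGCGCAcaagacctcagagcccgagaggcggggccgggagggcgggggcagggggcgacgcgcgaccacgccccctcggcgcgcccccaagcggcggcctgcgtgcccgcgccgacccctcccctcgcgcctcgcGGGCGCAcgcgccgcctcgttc
Slc30a10: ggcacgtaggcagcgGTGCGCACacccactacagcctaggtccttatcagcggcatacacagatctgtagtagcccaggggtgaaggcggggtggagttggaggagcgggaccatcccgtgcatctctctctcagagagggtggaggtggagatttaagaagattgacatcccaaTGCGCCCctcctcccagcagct
The stretches lie at chr1:191906723-191906759 (plus strand), chr13:100833454-100833490 (minus), chr2:122702734-122702906 (minus) and chr1:185454600-185454796 (plus). The element occurs in 21.4% of all 32851 promoters of this length searched. It occurs in at least 1 promoter of 23 of the 61 members matched by symbol, and of 10 of the 20 matched SLC30 and SLC39 genes. Several members have more than 1 promoter, so these gene counts are not on the same basis as the 21.4% of single promoters. The 6 genes were picked by their calls in Msi1 against IgG. A match is a description of the letters, and its relation to the array values was not tested.

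The SLC39 zinc importers were divided, with 3 of 14 above IgG and 2 below it by 2-fold or more in Msi1. Of the 14, 10 could be compared, and the shares of all genes, detected or not, were 9.67% and 3.59%. Slc39a1, a zinc importer of the plasma membrane, read 7.26 in Msi1, 5.55 in hnRNP, 4.21 in IgG and 7.17 in input on its brighter probe set. Msi1 and input were level there, and Msi1 was at least 3.98-fold higher than IgG (3.05). Its other probe set read 5.35 in Msi1, 4.94 in hnRNP, 4.75 in IgG and 6.74 in input and differed from IgG by 0.59, so that only 1 of the 2 probe sets was past 2-fold.

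Slc39a9, a Golgi member, read 6.79 in Msi1, 4.93 in hnRNP, 4.67 in IgG and 8.53 in input, and was at least 2.87-fold above IgG in Msi1 (2.12). Slc39a7, which releases zinc from the endoplasmic reticulum, read 7.11 in Msi1, 6.66 in hnRNP, 5.65 in IgG and 7.13 in input. It was 2.75-fold above IgG in Msi1 (1.46) and was the 1 higher member whose IgG value exceeded the floor.

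Both members lower in Msi1 were zinc importers. Slc39a5, known from the basolateral membrane of enterocytes, read 4.95 in Msi1, 5.86 in hnRNP, 6.47 in IgG and 8.36 in input. Msi1 was the lowest of the 4, 2.87-fold below IgG (−1.52). Slc39a6 read 4.49 in Msi1, 5.98 in hnRNP, 5.73 in IgG and 4.34 in input, at least 1.99-fold lower in Msi1 than in IgG (−1.23). Here both Msi1 and input were dim, and the IgG and hnRNP arrays were brighter than input.

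Slc39a4, the brush border zinc importer, read 4.32 in Msi1, 4.69 in hnRNP, 4.98 in IgG and 7.73 in input. It was above the floor on input alone, so no difference between the precipitates could be read. Slc39a14, which carries zinc, iron and manganese, read 5.84 in Msi1, 5.30 in hnRNP, 5.29 in IgG and 8.14 in input, a difference from IgG of 0.54. Slc39a8, a manganese and zinc importer, differed from IgG by −0.38, and Slc39a13, of intracellular membranes, by −0.93. Slc39a3 and Slc39a11 differed by −0.09 and 0.15, Slc39a2 and Slc39a10 were above the floor on input alone, and Slc39a12 was below the floor everywhere.

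Of the 24 SLC35 genes, 7 exceeded IgG by 2-fold or more in Msi1 and 0 were lower, beside 9.67% and 3.59% of all genes, detected or not. Of the 24, 15 could be compared. Slc35a3, the Golgi carrier of UDP-N-acetylglucosamine, read 8.89 in Msi1, 4.31 in hnRNP, 3.61 in IgG and 7.43 in input. It ranked 8 of the 10360 genes against IgG and was also 2.74-fold higher in Msi1 than in input (1.45). Slc35f5, whose cargo is not settled, read 9.02 in Msi1, 4.63 in hnRNP, 4.74 in IgG and 8.41 in input. It was at least 13.5-fold above IgG in Msi1 (4.28, rank 57), and the hnRNP and IgG values were below their floors.

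The other 5 higher SLC35 genes had Msi1 signals only a little above the IgG floor, so their lower bounds stayed between 1.12-fold and 1.43-fold. Slc35a1, the carrier of CMP-sialic acid, read 5.58 in Msi1, 3.83 in hnRNP, 3.39 in IgG and 5.55 in input (2.19 over IgG, at least 1.24-fold). Slc35a5 read 5.70 in Msi1, 3.82 in hnRNP, 3.51 in IgG and 5.99 in input (2.19 over IgG, at least 1.36-fold). In both, Msi1 was close to input and the hnRNP and IgG values were below their floors.

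Slc35b1, of the endoplasmic reticulum and described in human cells as an ATP carrier, read 5.43 in Msi1, 4.21 in hnRNP, 3.43 in IgG and 9.08 in input. Its excess over IgG of 1.99 came to at least 1.12-fold when taken from the floor, and Msi1 lay far below input. Slc35e2 read 5.79 in Msi1, 3.57 in hnRNP, 3.61 in IgG and 7.41 in input (2.18 over IgG, at least 1.43-fold), and Slc35f2 read 5.50 in Msi1, 4.43 in hnRNP, 4.24 in IgG and 7.70 in input (1.26, at least 1.18-fold). These 3 were at least 2-fold lower in Msi1 than in input.

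The nucleotide sugar carriers under 2-fold against IgG included several with known cargo. Slc35a2, for UDP-galactose, read 5.80 in Msi1, 5.31 in hnRNP, 5.52 in IgG and 5.99 in input, a range of under 1 log2 unit over the 4 arrays. Slc35c1, for GDP-fucose, read 5.57 in Msi1, 4.89 in hnRNP, 4.74 in IgG and 7.01 in input (0.83 over IgG). Slc35b2 and Slc35b3, which carry the sulfate donor PAPS, differed from IgG by −0.17 and 0.08. Slc35c2, Slc35e1 and Slc35e4 differed by −0.10, −0.13 and −0.65. Slc35b4, Slc35d1, which carries UDP-glucuronic acid, and Slc35d2 exceeded the floor on input alone, and Slc35e3 (5.40 in hnRNP) and Slc35f6 (5.23 in hnRNP) exceeded it in hnRNP and input. Slc35d3, Slc35f1, Slc35f3 and Slc35f4 were below the floor on all 4 arrays.

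Slc35a4 was measured by 2 probe sets that differed most on input. The brighter read 5.08 in Msi1, 5.47 in hnRNP, 4.95 in IgG and 8.69 in input, and the other 5.88 in Msi1, 5.46 in hnRNP, 3.93 in IgG and 6.57 in input. Msi1 differed from IgG by 0.14 on the first and by 1.95 on the second, so the gene was called or not according to the probe set. It was counted by the first.

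Among the SLC44 genes, Slc44a1, a choline carrier, was called higher on both of its probe sets. One read 9.34 in Msi1, 3.24 in hnRNP, 4.37 in IgG and 8.64 in input, and the other 6.37 in Msi1, 4.33 in hnRNP, 4.33 in IgG and 8.11 in input. The differences from IgG were 4.96 (at least 16.8-fold, rank 19) and 2.05. The probe sets lay closest together in IgG and furthest apart in Msi1, by 2.96 log2 units, and against input they differed by 0.69 and −1.74.

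**Figure D4:**
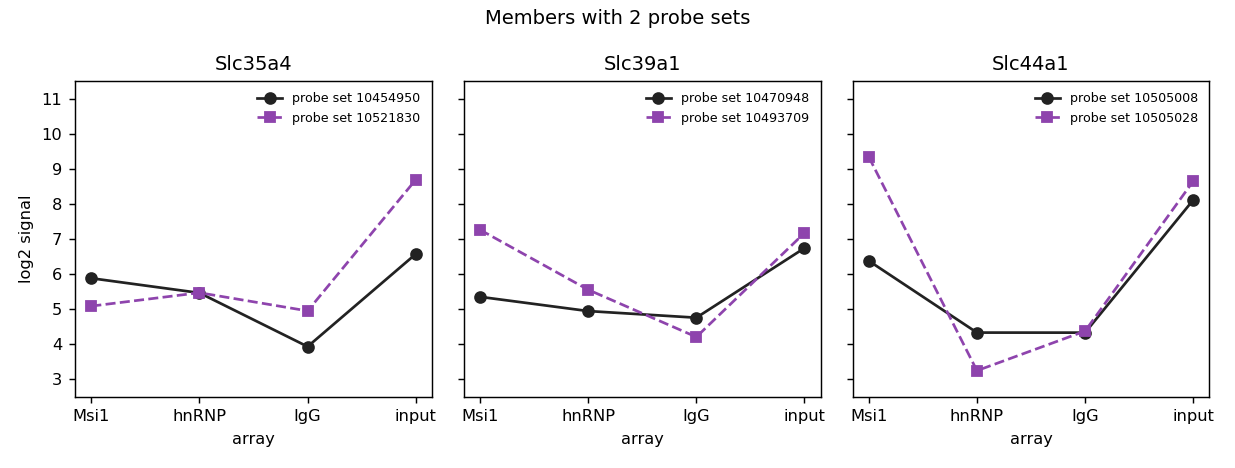
Log2 signal on the Msi1, hnRNP, IgG and input arrays for the 3 members with 2 probe sets; lines join the values of 1 probe set and imply no order. The probe sets of Slc39a1 and Slc44a1 lie furthest apart in Msi1, and those of Slc35a4 on input.

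The other SLC44 genes were not above IgG to that extent. Slc44a4, a thiamine pyrophosphate carrier in human colon, read 5.60 in Msi1, 5.01 in hnRNP, 5.36 in IgG and 8.37 in input (0.24 over IgG). Slc44a3 read 3.45 in Msi1, 4.09 in hnRNP, 3.83 in IgG and 8.02 in input, and was thus bright in the starting RNA and below the floor in every precipitate. Slc44a2 exceeded the floor on input alone (4.41), and Slc44a5 on no array.

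No SLC37 gene was called against IgG. Slc37a1 read 6.23 in Msi1, 5.25 in hnRNP, 6.15 in IgG and 7.82 in input, and Slc37a2 read 4.85 in Msi1, 5.04 in hnRNP, 4.91 in IgG and 4.71 in input. Msi1 and IgG were level for both. Slc37a4, the glucose-6-phosphate carrier of the endoplasmic reticulum, and Slc37a3 exceeded the floor on input alone, at 6.34 and 6.46.

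In SLC17, SLC18 and SLC33, 1 member was called. Slc18b1, which carries polyamines into vesicles, read 5.90 in Msi1, 5.63 in hnRNP, 4.58 in IgG and 8.54 in input, and was at least 1.56-fold above IgG in Msi1 (1.32). Slc17a4, an anion carrier of the intestine, read 5.49 in Msi1, 3.79 in hnRNP, 4.62 in IgG and 7.44 in input (0.87 over IgG). Slc17a5, the lysosomal sialic acid exporter sialin, exceeded the floor on input alone (7.46), as did Slc18a1, the monoamine carrier of endocrine cells (5.78), and Slc33a1 (5.31).

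Most other SLC17 and SLC18 genes were at background. Slc17a6, Slc17a7 and Slc17a8, the vesicular glutamate carriers, Slc18a2, the neuronal monoamine carrier, Slc17a9, the vesicular nucleotide carrier, and Slc17a1, Slc17a2 and Slc17a3 were below the floor on all 4 arrays. Slc18a3, the acetylcholine carrier, read 5.81 in Msi1, 5.67 in hnRNP, 6.11 in IgG and 4.34 in input. It was brightest in IgG and near the floor on input.

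In Msi1 against input, 3 members of 56 compared were 2-fold or more higher and 28 lower, beside 11.8% and 38.4% of all genes. All 56 exceeded the input floor, while 40 members exceeded the Msi1 floor, so the filter itself favoured members that were high on input. With values below the floor raised to it, 3 were higher and 24 lower, beside 8.34% and 34.8% of all genes. The median was −1.06, beside −0.57 over all genes. It moved with the scaling, to −0.34 with quantile normalization (all genes −0.11) and −1.32 with median centring (all genes −0.82). With the 4 arrays quantile normalized the members' counts became 10 higher and 16 lower, beside 12.2% higher and 18.9% lower over all genes, so the order of the members' higher share and that of all genes depended on the scaling. Among the 3 higher, Slc35a3 exceeded input by 1.45, Slc18a3 by 1.47 and Slc35e4 by 1.33. The last 2 read 4.34 and 4.20 on input, near its floor, and 21.0% of receptor genes also exceeded input by 2-fold or more in Msi1. Slc44a3 (−4.57, at least 9.75-fold), Slc35b1 (−3.66, 12.6-fold) and Slc35a4 (−3.60, 12.1-fold) were the furthest below input, the last at −0.69 on its other probe set.

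**Figure D5:**
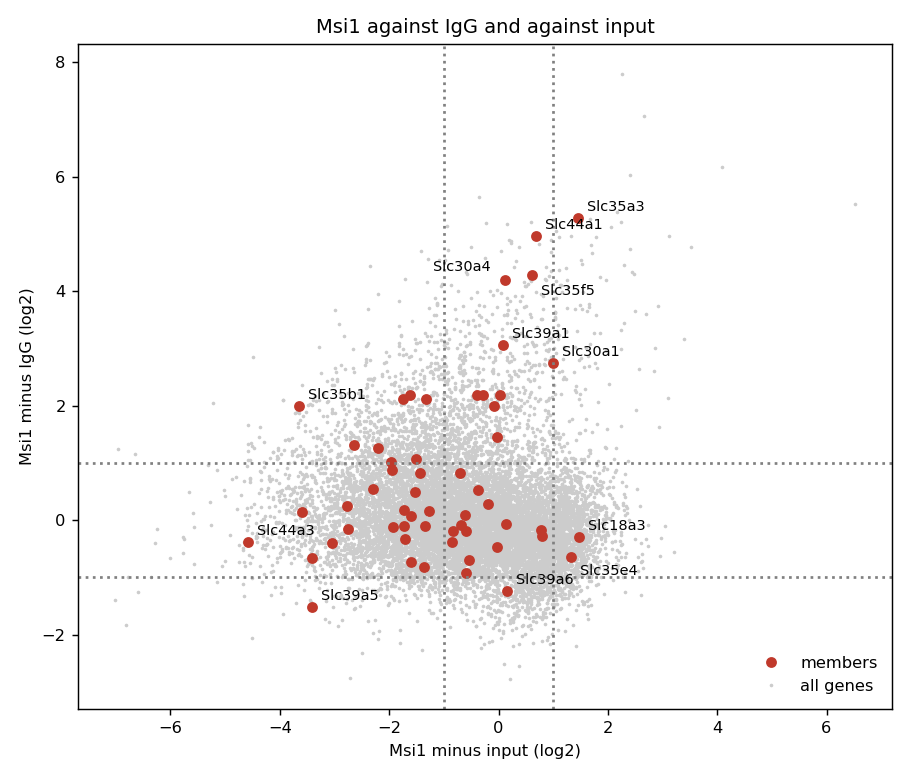
Msi1 minus IgG (vertical, log2) against Msi1 minus input (horizontal, log2), for members (red) and all genes above the floor on at least 1 array of either comparison (grey); dotted lines mark 2-fold. Both axes share the Msi1 array. Slc35a3 is the member past 2-fold upward on both axes, and Slc30a1 lies at 2.74 over IgG and 1.00 over input.

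In Msi1 against hnRNP, 17 members of 43 compared were 2-fold or more higher and 2 lower, beside 17.5% and 7.79% of all genes, with medians of 0.53 for members and −0.02 for all genes. Of the 43, 21 passed through the Msi1 array alone, 19 through both arrays and 3 through hnRNP alone. With values below the floor raised to it 8 were higher and 1 lower, beside 10.9% and 4.03% of all genes. This comparison shares the Msi1 array with the one against IgG. Slc44a1 (6.09, at least 17.98-fold), Slc35a3 (4.58, at least 13.2-fold) and Slc35f5 (4.39, at least 14.5-fold) were the furthest above hnRNP. The other probe set of Slc44a1 differed from hnRNP by 2.04 (at least 2.31-fold), which would take the gene out of these 3. Slc39a6 (−1.49, at least 2.37-fold) and Slc35e3 (−1.15, at least 1.58-fold) were lower, and Slc39a3, next in order, differed by −0.93. Slc30a10, Slc39a7 and Slc18b1, called against IgG, differed from hnRNP by 0.17, 0.45 and 0.27.

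In hnRNP against IgG, 4 members of 23 compared were 2-fold or more higher and 0 lower, beside 6.27% and 4.51% of all genes. Of all members, 22 exceeded the hnRNP floor and 14 the IgG floor, so the filter itself favoured members that were high in hnRNP. Among the 4, Slc30a10, Slc39a1 and Slc18b1 were below the floor in IgG and passed through hnRNP alone. Quantile normalization gave 6 higher and 1 lower, beside 12.8% and 10.6% of all genes. With the floor at the 99th percentile 2 were higher, beside 8.11% of all genes. With values raised to the floor 2 were also higher, beside 1.71%. Slc30a10 led with 1.82 (at least 2.29-fold, rank 29 of 7912 genes), followed by Slc39a1 (1.35, at least 1.22-fold), Slc18b1 (1.04, at least 1.29-fold) and Slc39a7 (1.01, 2.02-fold). The fourth was named after its value was seen. On the other probe set of Slc39a1 the difference was 0.19 with both arrays below the floor, and on the other of Slc35a4 it was 1.53 (at least 1.15-fold), so these 2 genes would change places among the calls. Slc37a1 (−0.90), Slc39a5 (−0.61) and Slc39a13 (−0.57) were the lowest.

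In IgG against input, 4 members of 56 compared were 2-fold or more higher and 38 lower, beside 16.6% and 44.7% of all genes. The medians were −1.90 for members and −0.71 for all genes. All 56 exceeded the input floor, while 14 members exceeded the IgG floor, so the filter itself favoured members that were high on input. With values below the floor raised to it, 4 were higher and 32 lower, beside 19.9% and 35.1% of all genes. The members' median was −1.37 with quantile normalization (all genes −0.35) and −2.28 with median centring (all genes −1.10). Slc35b1 (−5.65, at least 14.1-fold), Slc44a1 (−4.27, at least 10.4-fold, and −3.78 on its other probe set) and Slc44a3 (−4.19, at least 6.76-fold) were the furthest below input. Slc35e4 (1.98, 3.94-fold), Slc18a3 (1.77, 3.41-fold) and Slc39a6 (1.39, 2.61-fold) were the furthest above it, with Slc30a3 the remaining one (1.07). All 4 were dim on input, at 4.20 to 4.90, and 47.6% of receptor genes exceeded input by 2-fold or more in IgG.

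Other genes of the same pathways were compared in Msi1 against IgG from lists that were chosen with earlier results of these data known. Of 7 genes of zinc buffering and sensing, 6 could be compared, and 1 was higher and 0 lower, with a median of 0.20. Over all genes compared 18.6% were higher and 6.91% lower, with a median of 0.06. Mt2, a zinc-binding metallothionein, read 7.15 in Msi1, 5.25 in hnRNP, 5.86 in IgG and 11.65 in input, 2.44-fold over IgG (1.29). Mt3 and Mt1, of the same family, differed by 0.63 and 0.24, under 2-fold.

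Enzymes that make nucleotide sugars and PAPS had 4 higher and 2 lower of 20 compared, near the 18.6% and 6.91% of all genes, with a median of 0.49. Gnpnat1, an enzyme of UDP-N-acetylglucosamine synthesis, read 8.69 in Msi1, 4.51 in hnRNP, 4.17 in IgG and 8.37 in input, at least 10.8-fold over IgG (4.53). Its other probe set exceeded IgG by 3.18. Ugdh, which makes UDP-glucuronic acid, was 8.16-fold above IgG in Msi1 (3.03), and Gmds, which starts GDP-fucose synthesis, was at least 5.09-fold higher (2.55).

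Genes from choline to phosphatidylcholine had 2 higher and 1 lower of 6 compared, beside 18.6% and 6.91% of all genes. Their median was 0.90, beside 0.06 over all genes. In this list 5 genes exceeded the Msi1 floor and 2 the IgG floor, so the filter favoured genes that were high in Msi1. Chpt1, a cholinephosphotransferase, was at least 5.55-fold higher (2.81) and Cept1, a related transferase, at least 1.52-fold (1.49), while Pemt, the methyltransferase of the other route to phosphatidylcholine, was at least 2.95-fold lower (−1.76). Neither of the 2 genes of glucose-6-phosphate handling that could be compared was called, G6pc3 and H6pd differing by 0.04 and 0.09. The vacuolar proton pump powers the SLC17 and SLC18 carriers of vesicles and lysosomes. Its genes had 3 higher and 0 lower of 14 compared and a median of −0.16, again near the share of all genes. Atp6ap2 (2.02, at least 2.81-fold), Atp6v1b2 (1.29, at least 1.59-fold) and Atp6v1d (1.10, at least 1.35-fold) were the 3. Atp6v1g1 and Atp6v1f, which differed by −0.09 and −0.75 on the probe sets used, differed by 3.15 and 1.74 on their others, so that 5 genes of the pump were higher when any probe set was counted. The other lists had the same counts either way.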

How the data were processed

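The deposited table holds 1 log2 value per probe set and array, summarized by the authors. The submitters' processing notes name affy with no version number; how background was corrected, how arrays were scaled and which log base was used were not stated there or in the labels. Of 34760 probe sets, 21640 carried 1 gene symbol (19937 genes), and only these were used. For genes with several probe sets, the brightest by its 4-array mean was taken. Differences were taken between arrays as deposited, for genes above the floor (95th percentile of receptor probe sets) on at least 1 of both arrays, and counted at 2-fold. A fold whose dimmer value lay under the floor is a lower bound against that floor, and no fold is given where both are. No p-value was computed, since each group had 1 array. Groups came from the antibody in the labels.

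Members and lists were chosen with earlier results of these data known. Named with values were all members called against IgG in Msi1, the top 3 and bottom 3 of each other comparison, the 8 brightest on input, members with more than 1 probe set, and 3 genes per list with the largest difference in Msi1 against IgG; other values describe the families. The calling step was tested on simulated data. Its changed genes all had a mean Msi1 and IgG signal above the highest floor, so the test did not cover dimmer ones. Promoter sequences are from RefSeq (GRCm38.p6). Alternatives were quantile normalization, median centring, the floor at the 99th percentile, values raised to the floor, and the probe set brightest on input. Python 3.11.15, pandas 2.3.3, numpy 2.4.6 and matplotlib 3.10.9 were used.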

Additional observations from a re-analysis of the deposited data

How the results depend on the processing

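With values below the floor raised to it, 10 members stood 2-fold or more above IgG and 1 below it in Msi1, beside 10.8% and 3.87% of all genes. Against hnRNP, 8 were above and 1 below in Msi1, beside 10.9% and 4.03%. In hnRNP against IgG, 2 were higher, beside 1.71%. With the floor at the 99th percentile, 1 member was lower in Msi1 than in IgG, beside 6.13% of all genes. At that floor 1 was lower in Msi1 than in hnRNP, beside 7.42%, and 2 were higher in hnRNP than in IgG, beside 8.11%. Quantile normalization gave 10 higher and 16 lower in Msi1 than in input, beside 12.2% and 18.9% of all genes. It gave 4 lower in Msi1 than in hnRNP, beside 15.7%, and 1 lower in hnRNP than in IgG, beside 10.6%. Median centring left 2 members higher in IgG than in input, beside 11.3% of all genes. The 18 members higher in Msi1 than in IgG kept that call under quantile normalization and the stricter floor. They also kept it under median centring, which raised every difference in that comparison alike and so could remove no higher call. The probe set brightest on input was, for each member, the one already used, so that setting could change no member's call. In Msi1 against hnRNP the members' median of 0.53 became 0.64 with quantile normalization and 0.66 with median centring. Median centring moved the median of all genes compared in Msi1 against IgG to 0.20 from 0.06, and that of the members to 0.96 from 0.83. Quantile normalization moved the members' median in Msi1 against IgG to 1.13. Quantile normalization changed the shares of all genes called in that comparison to 22.4% higher and 15.2% lower. No paired analysis was possible because each group had 1 array. Signals near the floor limit what can be read: below it a difference has no size, and the cause of these changes was not tested.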
